A study of Mus musculus with 6 samples.

Results

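The genes described here encode the non-collagen scaffold of the extracellular matrix: matrix glycoproteins, elastic fibre and microfibril proteins, the enzymes that crosslink them, proteoglycans, and the laminins and nidogens of basement membranes. They were taken from a list of 43 gene symbols. A gene was measured if the platform annotation gave its symbol to at least 1 probe of the deposited value table, which held for 39 of the 43 genes and for 89 probes, out of 19057 named genes and 45281 probes on the array. Fbn1, Fbn2, Efemp2 and Loxl2 matched no probe and were not analysed here.

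The samples are 6 stably transfected lines of NIH3T3, a fibroblast line from embryos of NIH Swiss mice, each read on 1 Illumina bead array. They are called clones here, and p-values measure the spread between these 3 lines a side. The clones FEAT 3, FEAT 15 and FEAT 20 carry the coding sequence of human FEAT (METTL13, also EEF1AKNMT, a methyltransferase of the elongation factor eEF1A) under the elongation factor 1 alpha promoter in the plasmid pEF-DEST51. Their colonies were picked after 7 days in 10 µg/ml blasticidin S and kept for high FEAT protein. The lines control 1, control 2 and control 3 (ΔccdB in the labels) carry the same plasmid with its ccdB gene deleted and no FEAT, and no label tells how these lines were selected. With 3 arrays a group, precision is limited throughout.

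Fibroblasts secrete these proteins into the space around them. Fibronectin forms fibrils that cells grip through integrins, and matricellular proteins such as thrombospondins and tenascin bind that scaffold and modulate adhesion. Elastic fibres are built from elastin laid down on microfibrils of fibrillin, with fibulins and microfibril-associated glycoproteins as helpers, and lysyl oxidases crosslink elastin and collagen outside the cell. Small leucine-rich proteoglycans coat collagen fibrils, versican and perlecan carry large glycosaminoglycan chains, and laminins joined to nidogens make up the basement membrane.

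Of the clones' fibroblast markers, 9 of 10 were above background on all 6 arrays, among them Col1a1, Col1a2, Col3a1, Vim, Pdgfra and Thy1, while Fap was above it on none. The summed intensity of these 10 markers ran from 35061 to 38147 in control clones and from 36769 to 44659 in FEAT clones. Markers of epithelial, endothelial, blood, muscle and fat cells were mostly at background: Epcam, Krt8, Krt18, Krt19, Pecam1, Cdh5, Ptprc, Adgre1, Myod1 and Adipoq were above it on no array. Exceptions above background on all 6 arrays were Cdh1, Cd14 and Des. Myog was above it on 1 control and 3 FEAT arrays, and Tek on 1 control array. Bone and cartilage markers were mixed: Acan and Sp7 were above background on no array, Bglap on 2 control arrays and Col2a1 on 1 FEAT array. Sox9 was above it on all 6 arrays, with a strong signal of 9136 to 14023. Background here means a limit set on each array from its dim probes, which lay at intensities of 96.3 to 102, and 36.9% to 39.8% of probes exceeded it. The mean probe intensity was 616 to 735. The mouse probes need not read the human insert, so its level was not checked here. The brightest probe of its mouse counterpart Eef1aknmt differed by 0.03 on the log2 scale (limma, adjusted p = 0.979), and its other 4 tested probes had negative differences. Of these 4, 1 was lower in every FEAT clone, at 119, 117 and 121 in controls and at 92.2, 91.5 and 99.0, not above background, in FEAT clones (adjusted p = 0.146). The other three overlapped and gave -0.25, -0.17 and -0.11.

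Thbs1, which encodes thrombospondin 1, a matricellular glycoprotein that activates latent TGF-beta, was the 1 member that passed the test between FEAT and control clones. The test was limma on normalized log2 intensity, with p-values adjusted over all 27169 probes tested and a threshold of 0.05. Of the 39 measured members 34 were bright enough to be tested, and Thbs1 makes 1 of 34 (2.94%), beside 0.225% of all 13315 genes tested. Since whole cultures were measured, more cells of a kind and more RNA per cell cannot be told apart. Most other members stood a little higher in FEAT clones without passing. The median log2 difference, FEAT minus control, was 0.16 over the 34 members and 0.01 over all genes tested, and it was positive for 24 of 34 members (70.6%, beside 51.6% of all genes). An unadjusted p under 0.05 was reached by 11 members, all higher in FEAT clones (32.4%, beside 5.20% of all genes in that direction and 10.1% in either), and by 0 members in the lower direction (beside 4.94%). A log2 difference of at least 0.5 was found for 8 members (23.5%, beside 2.01% of all genes), and of -0.5 or lower for 0 (beside 2.24%). Eln is counted among the 11 and the 8, although none of its control values was above background. These counts describe the list; its members were chosen with results of these arrays known, so they are not independent evidence of a direction.

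**Figure D1:**
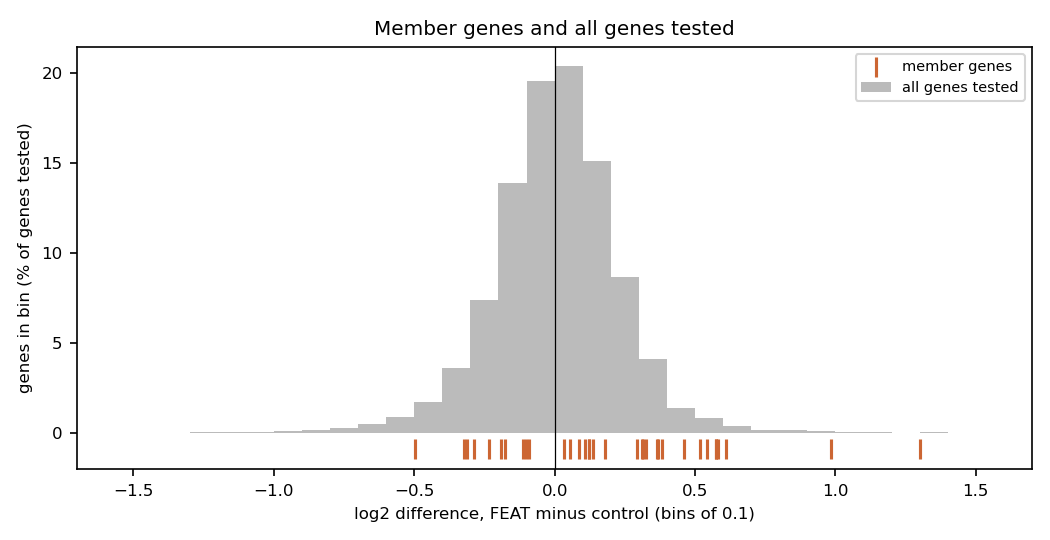
Histogram of the log2 difference, FEAT minus control, over the 13315 genes tested (grey bars, bins of 0.1, in percent of genes), with the 34 member genes as orange ticks below it. The members run from -0.50 (Prelp) to 1.30 (Thbs1), with a median of 0.16 against 0.01 for all genes. The horizontal axis ends at -1.7 and 1.7, and genes beyond it are not drawn.

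Among clones the list was not uniform. Set against the mean of the controls, the median member stood at 0.36 in FEAT 3 and 0.37 in FEAT 15 but at 0.03 in FEAT 20, which is the level of the control clones themselves (-0.04, -0.01 and 0.03). The median over all genes lay within 0.013 of 0 in every clone on this scale. FEAT 3 held the highest value of the 6 clones for 12 of 34 members and FEAT 15 for 11, while FEAT 20 held it for 1 and the lowest for 6. Without FEAT 20 the median difference was 0.31 and without control 2 it was 0.28, each over 1.5 times the full value. Members also spread more between clones of the same group than genes at large: for those above background on all 6 arrays, the median SD of log2 intensity was 0.26 in control and 0.31 in FEAT clones over 24 members, and 0.17 and 0.15 over 8517 genes. That difference in spread was not tested.

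**Figure D2:**
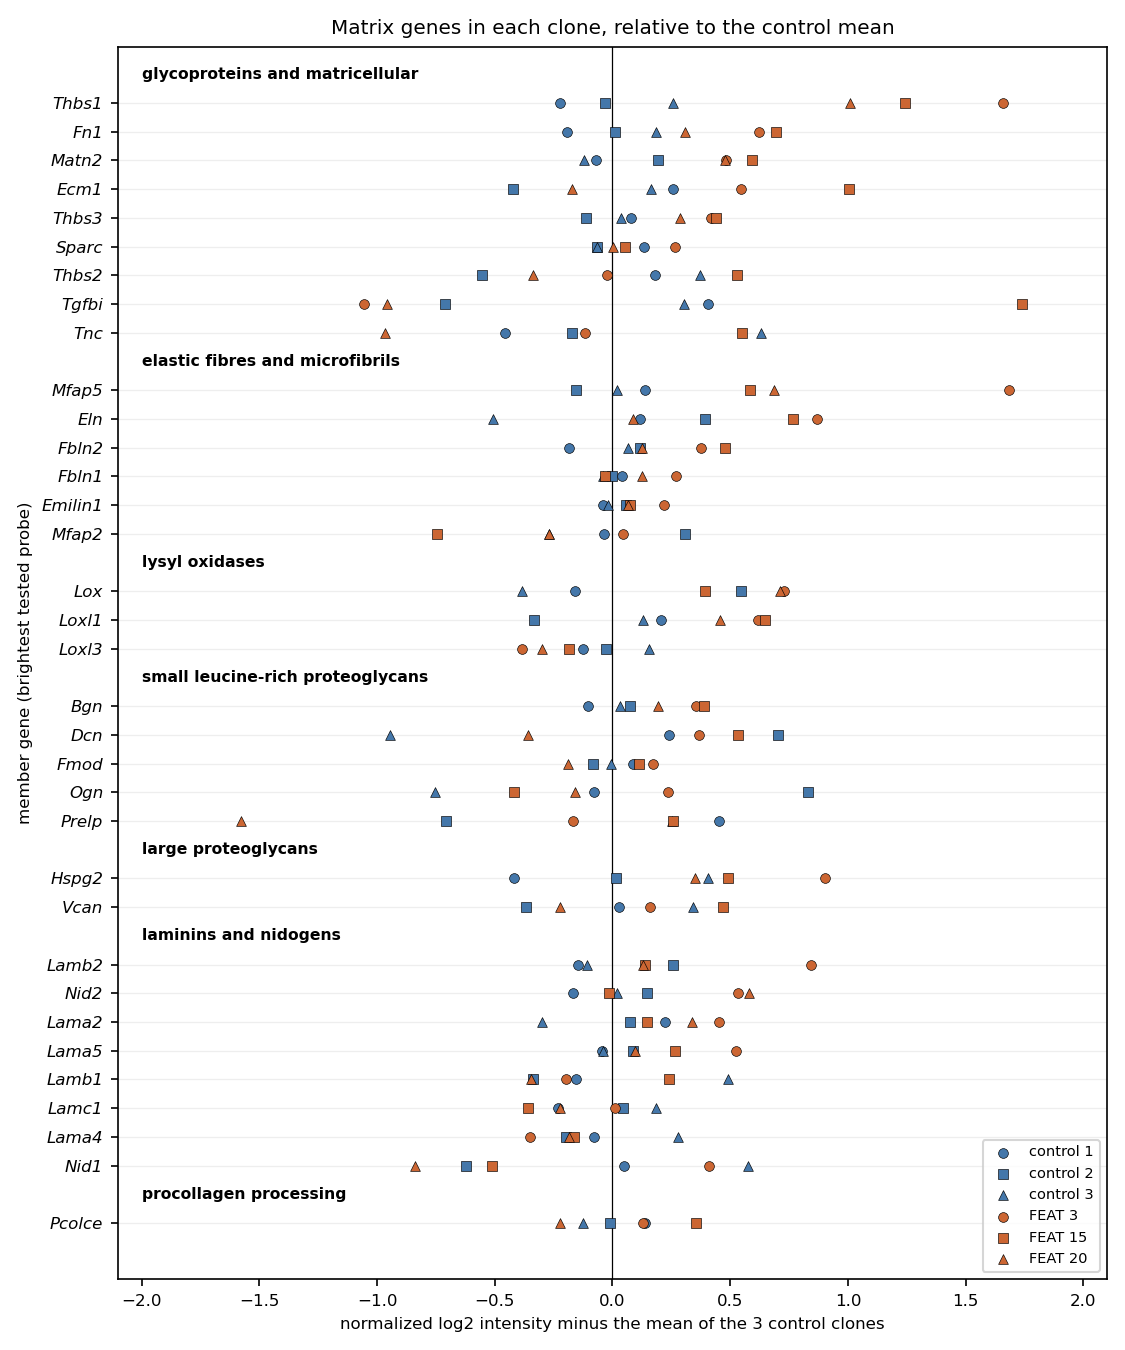
Normalized log2 intensity of each tested member in the 6 clones (blue, control; orange, FEAT; the marker shape gives the clone), minus the mean of the 3 control clones, on the gene's brightest tested probe. Thbs1 and Mfap5 stand to the right in all 3 FEAT clones, Tgfbi is spread over more than 2 log2 units among FEAT clones, and FEAT 20 lies nearest the controls for many genes.

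The glycoproteins were led by Thbs1. Its intensity was 92.9, 94.1 and 105 in control 1, control 2 and control 3 and 201, 188 and 168 in FEAT 3, FEAT 15 and FEAT 20. All 3 FEAT clones exceeded all 3 controls, and only control 3 among the controls was above the background limit. The fitted rise was 2.47-fold, with 1 of the 3 control values measured above background (log2 difference 1.30, SE 0.19, limma, adjusted p = 0.0237). Folds come from background-corrected, normalized values. That of Thbs1 exceeds the ratio of the deposited intensities, which still hold the background. The control signal lies at the background, and without background correction the log2 difference was 0.90 and the call was lost (adjusted p = 0.0718). Leaving out control 1, control 3 or FEAT 3 also ended the call (adjusted p = 0.186, 0.0584 and 0.0691), while the log2 difference stayed between 1.14 and 1.45 over all 6 omissions. Thbs1 was measured by 1 probe.

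Fn1, the gene of fibronectin, had 4 tested probes, and all were higher in every FEAT clone than in any control. On the brightest, control 1, control 2 and control 3 read 4760, 4838 and 5580, and FEAT 3, FEAT 15 and FEAT 20 read 6861, 8779 and 6963. The groups did not overlap, and FEAT 15 was the highest. The log2 differences of the 4 probes lay between 0.54 and 0.62, although their control means ran from 103 to 5059. None passed (limma, adjusted p = 0.149 to 0.268). They read transcripts of 1 gene in the same 6 RNA samples and are not replicates.

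Matn2 encodes matrilin 2, an adaptor protein of filamentous networks. It read 408, 440 and 362 in the controls, in clone order, and 489, 641 and 618 in the FEAT clones, again with no overlap (log2 difference 0.52, SE 0.14, limma, adjusted p = 0.231). Its other tested probes, which were not above background on every array, gave 0.09 and 0.19. Thbs3, a thrombospondin that assembles as a pentamer, had 206, 171 and 184 against 213, 255 and 237 (log2 difference 0.38, SE 0.13, adjusted p = 0.390). Every FEAT clone lay above every control on that probe, but the other probes of Thbs3 overlapped and gave 0.20 and -0.01.

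The remaining glycoproteins overlapped between the groups. Sparc, a collagen-binding matricellular protein with a strong signal in these fibroblasts, read 23200, 18057 and 17515 in controls and 21038, 20648 and 20873 in FEAT clones, a log2 difference of 0.11 with a 95% interval of -0.19 to 0.41. On the intensity scale the FEAT clones were close together and inside the control range, while after normalization FEAT 3 stood above all controls and the groups still overlapped. Ecm1, a secreted protein of skin and basement membranes, read 9209, 5080 and 7663 against 9274, 14872 and 7076 (log2 difference 0.46, limma, adjusted p = 0.655). FEAT 15 alone stood well above the controls. Thbs2, the close relative of Thbs1, showed no such rise: the values were 1910, 1061 and 1986 against 1395, 2495 and 1453, a log2 difference of 0.06 with a 95% interval of -0.51 to 0.62. The Thbs1 and Thbs2 differences were not tested against each other.

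Tgfbi encodes a secreted adhesion protein that is induced by TGF-beta, and of all tested members it varied most among FEAT clones. Among control clones Dcn, Ogn and Prelp varied more. Control 1, control 2 and control 3 read 1302, 572 and 1116, FEAT 3 and FEAT 20 read 423 and 566, and FEAT 15 read 3294. Thus FEAT 15 was 7.78 times FEAT 3, with 2 FEAT clones below all the controls and 1 above them. The other probe repeated the order, at 143, 758 and 153 in FEAT 3, FEAT 15 and FEAT 20. The log2 difference between groups was -0.09 with a 95% interval of -1.40 to 1.22, so these arrays bound it poorly. Tnc, tenascin C, was also uneven within both groups, from 222 to 382 in controls and from 172 to 411 in FEAT clones (log2 difference -0.18, SE 0.35). Postn, periostin, was not above background on any array with any of its 3 probes and was not tested.

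**Figure D3:**
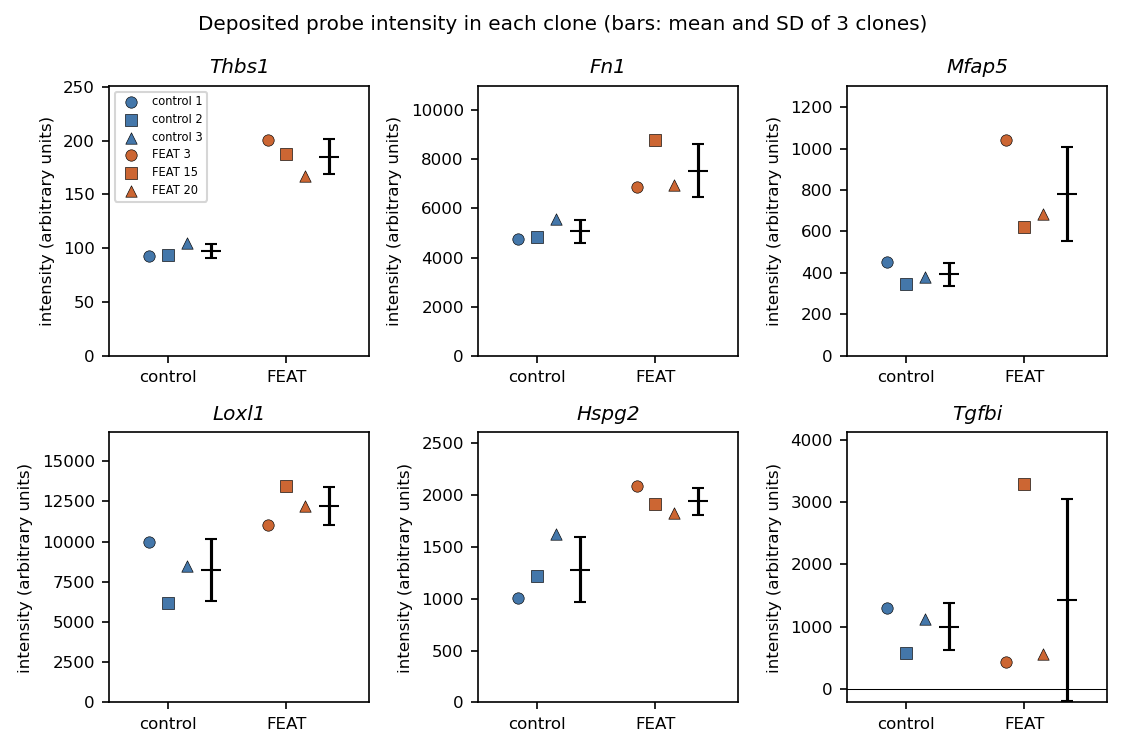
Deposited probe intensity (arbitrary units, linear axes) of 6 members in each control (blue) and FEAT (orange) clone, with the mean and SD of 3 clones at the right of each group. Thbs1, Fn1, Mfap5, Loxl1 and Hspg2 do not overlap between the groups on this scale, while Tgfbi reads 3294 in FEAT 15 and 423 and 566 in the other FEAT clones, so that its SD bar reaches below 0.

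Among elastic fibre and microfibril genes, Mfap5 had the largest difference. It encodes a microfibril-associated glycoprotein that binds fibrillin. Intensities were 455, 347 and 382 in control clones and 1041, 620 and 683 in FEAT clones. The lowest FEAT clone exceeded the highest control, and FEAT 3 was far above the other two. The log2 difference of 0.98 (SE 0.25, 95% interval 0.44 to 1.53) did not pass (limma, adjusted p = 0.197), and without FEAT 3 it was 0.63. Its relative Mfap2 had a negative difference, at 104, 112 and 87.2 against 99.1, 77.3 and 95.1, close to background (log2 difference -0.32, SE 0.21, adjusted p = 0.693).

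Fbln2, a fibulin of microfibrils and basement membranes, read 7652, 8462 and 8100 in controls and 9290, 11845 and 9693 in FEAT clones. The groups did not overlap, and its 3 probes gave log2 differences of 0.33, 0.45 and 0.58 (limma, adjusted p = 0.545 for the brightest). Eln, the gene of elastin itself, was near the detection limit in these cells: 86.4, 90.7 and 66.8 in controls, none above background, and 108, 111 and 85.9 in FEAT clones, of which FEAT 3 and FEAT 15 were above it. FEAT 20 lay below control 1 and control 2, so the groups overlapped (fitted log2 difference 0.57, limma, adjusted p = 0.523). Set against the higher of the control signal and the background limit, the mean of the FEAT clones was 1.01 times as high. That value takes no account of the spread between clones and is not a lower limit. Emilin1, a glycoprotein at the surface of elastin, read 264 ± 11.2 (SD, n = 3) in controls and 290 ± 18.3 (SD, n = 3) with FEAT, a log2 difference of 0.12. Fbln1 was not above background on any array with any probe, and neither were Fbln5 and Mfap4, which were not tested.

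Both lysyl oxidases with a strong signal were higher in FEAT clones without passing. Loxl1, which crosslinks elastin, read 9974, 6180 and 8514 in control 1, control 2 and control 3 and 11058, 13432 and 12198 in the FEAT clones. The groups were apart (log2 difference 0.58, SE 0.16, limma, adjusted p = 0.256). FEAT 3 lay nearest control 1 on the intensity scale, and FEAT 20 lay nearest it after normalization. Lox, the founding lysyl oxidase of collagen and elastin, read 12742, 18443 and 9489 against 19384, 17795 and 23382. Here control 2 was above FEAT 15, so the groups overlapped (log2 difference 0.61, SE 0.22, adjusted p = 0.412). Without control 2 the Lox difference was 0.88 and passed (adjusted p = 0.0454). Loxl3 was the 1 tested member with all FEAT clones below all controls, at 83.3, 92.1 and 90.4 against 96.0, 93.6 and 99.7. Only 1 of these 6 values, that of control 3, was above background, so no fold is given.

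The small leucine-rich proteoglycans split. Bgn, biglycan, which binds collagen and TGF-beta, read 17483, 17661 and 16772 in controls and 19973, 22735 and 21261 in FEAT clones. No clone overlapped, and the controls lay within 1.05-fold of each other (log2 difference 0.31, SE 0.13, limma, adjusted p = 0.501). Dcn, decorin, a close relative, differed 2.97-fold among the controls alone: 1583, 1942 and 655 against 1444, 1981 and 1132 (log2 difference 0.18, 95% interval -0.60 to 0.96). Ogn, osteoglycin, differed 2.75-fold among controls, at 597, 977 and 355 in controls and 614, 495 and 606 in FEAT clones. Control 3 was the lowest clone for both genes and control 2 the highest control.

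Prelp, a proteoglycan that anchors basement membranes to connective tissue, read 3064, 1244 and 2438 in controls and 1674, 2716 and 824 in FEAT clones. FEAT 20 was the lowest of all, and the groups overlapped (log2 difference -0.50, SE 0.41, limma, adjusted p = 0.772). Fmod, fibromodulin, and Lum, lumican, were at background on all 6 arrays with both of their probes, and Lum was not tested.

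Of the large proteoglycans, Hspg2, perlecan, read 1002, 1219 and 1619 in controls and 2081, 1916 and 1824 in FEAT clones. The intensities did not overlap, but after normalization FEAT 20 fell just below control 3 (log2 difference 0.58, SE 0.21, limma, adjusted p = 0.420). A second probe gave 0.54. Vcan, versican, whose transcript is spliced into several forms, had 5 tested probes that differed in sign and size. The brightest read 487, 349 and 541 against 448, 667 and 439, a difference of 0.14 with overlap. Another read 188, 181 and 166 against 202, 336 and 290, with every FEAT clone above every control and a difference of 0.69 (adjusted p = 0.161). The other three gave 0.28, 0.41 and -0.17, the last of them near background. Where each probe lies in the transcript was not examined here.

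**Figure D4:**
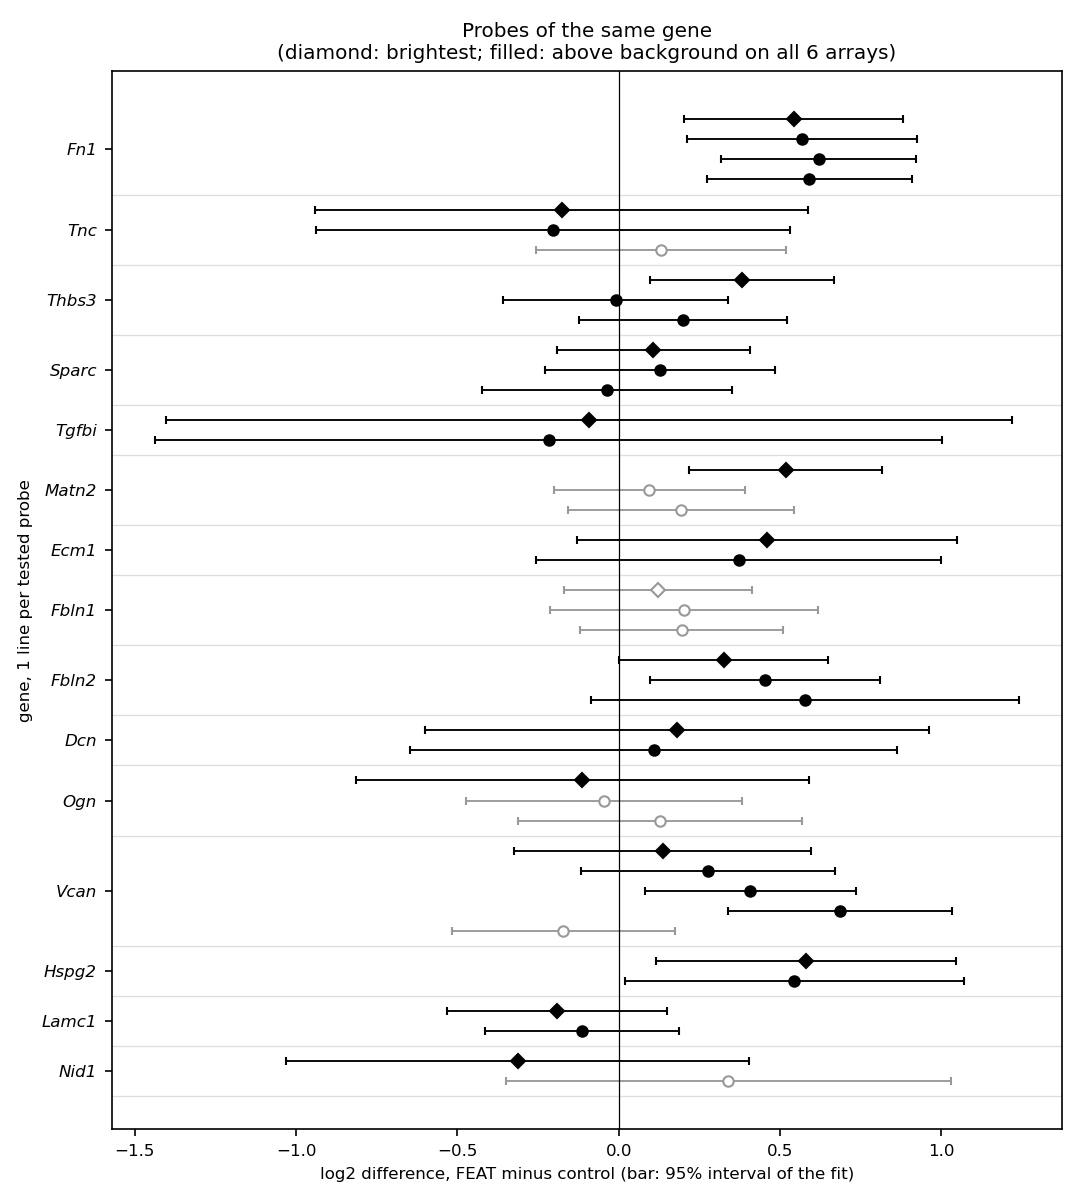
Log2 difference, FEAT minus control, with its 95% interval for every tested probe of the 15 members with more than 1 tested probe (diamond, brightest probe; filled, above background on all 6 arrays). The 4 Fn1 probes lie together between 0.54 and 0.62, whereas the 5 Vcan probes run from -0.17 to 0.69.

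Over the 15 members with more than 1 tested probe, the probes had 1 sign in 9 genes and both signs in 6. In Tnc, Ogn, Vcan and Nid1 the probe of the other sign was not above background on every array. In Thbs3 and Sparc it gave only -0.01 and -0.04. Of 61 member probes tested, 18 had an unadjusted p under 0.05 (limma), all of them higher in FEAT clones. Beside it stand 9.08% of all probes tested, which counts both directions, so the shares are not matched. Several of the 18 read the same gene, as the 4 probes of Fn1 do, and are not independent. The adjusted threshold was passed by 1 of the 61, beside 0.184% of all probes.

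Promoter sequence was at hand in RefSeq (build GRCm38.p6) for 26 of the 43 genes, and for 4 of the 11 members with an unadjusted p under 0.05: Hspg2, Bgn, Fbln2 and Thbs3. It was not at hand for Thbs1, Fn1, Matn2, Mfap5, Lox, Loxl1 and Eln. The 250 bases before the annotated start were searched on both strands for TGANTCA (AP-1), GGAATG (TEAD), CAGACA (SMAD) and the CArG box of serum response factor. None of these occurs in the windows of those 4 genes. Over all 33 windows of members, CAGACA was in 10 (30.3%, beside 17.1% of all 32851 windows), GGAATG in 3 (9.09%, beside 12.6%), TGANTCA in 1 (3.03%, beside 6.75%) and the CArG box in 1 (3.03%, beside 1.47%). Some windows belong to 1 gene and overlap. The GC box, GGGCGG, was added after the sequences had been seen, and it is in 20 member windows (60.6%, beside 32.7%). The median GC content was 58.8% in member windows and 52.4% in all. A match is a description of the letters and no evidence of binding.

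The windows of Hspg2 and Bgn are shown because these genes stood higher in the 3 FEAT clones on the intensity scale and hold the most GC boxes of the 4. Each runs 5′ to 3′ on the plus strand, and capitals mark GC boxes on either strand. The Hspg2 window is chr4:137468553-137468802 and holds 5, the Bgn window is chrX:73483351-73483600 and holds 3.
Hspg2: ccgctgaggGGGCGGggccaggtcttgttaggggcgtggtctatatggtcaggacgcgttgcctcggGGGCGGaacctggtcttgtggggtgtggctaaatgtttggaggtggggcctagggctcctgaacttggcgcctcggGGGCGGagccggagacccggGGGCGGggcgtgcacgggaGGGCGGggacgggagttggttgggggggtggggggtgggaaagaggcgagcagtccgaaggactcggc
Bgn: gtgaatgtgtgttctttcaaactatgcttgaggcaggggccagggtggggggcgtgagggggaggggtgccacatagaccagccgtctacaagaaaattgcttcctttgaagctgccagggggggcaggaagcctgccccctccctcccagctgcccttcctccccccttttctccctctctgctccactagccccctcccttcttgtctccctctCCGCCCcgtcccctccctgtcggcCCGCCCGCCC

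Among laminins and nidogens 0 of 8 tested genes passed or reached an unadjusted p under 0.05 with limma, and their median log2 difference was 0.10, with 4 positive and 4 negative. Lamc1, the gamma chain shared by most laminins, read 1476, 1603 and 1777 in controls and 1454, 1393 and 1592 in FEAT clones, which overlapped (log2 difference -0.19, 95% interval -0.53 to 0.15). Lamb2 read 572, 676 and 533 against 919, 706 and 727, higher in each FEAT clone on the intensity scale but overlapping after normalization (log2 difference 0.37, SE 0.20, adjusted p = 0.623). Nid1, which links laminin to type IV collagen, was uneven within groups, at 1035, 612 and 1366 against 1116, 747 and 625 (log2 difference -0.31, SE 0.33). Its other probe, dimmer and not above background on every array, gave 0.34. Nid2 gave 141, 151 and 142 against 174, 151 and 213 (log2 difference 0.37, SE 0.17, adjusted p = 0.573). The alpha chains were dim: Lama5 was above background on no array, Lama2 and Lama4 on some, and Lama1 was not tested. The beta chain Lamb1 was also dim, at 112 ± 20.6 and 109 ± 16.4 (SD, n = 3 each). Pcolce, an enhancer of procollagen cleavage, read 5471 ± 852 in controls and 5932 ± 1173 in FEAT clones (log2 difference 0.09, 95% interval -0.27 to 0.45).

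Separation of the groups by itself was common on these arrays. All 3 FEAT clones lay above all 3 controls, on normalized values, for 10 members (29.4%, beside 7.95% of all genes tested) and below them for 1 (2.94%, beside 7.24%). Of these 10, Lama5 was above background on no array, and Emilin1 overlapped on the intensity scale. A separation with a log2 difference of at least 0.5 was found for 5 members, Thbs1, Mfap5, Loxl1, Fn1 and Matn2 (14.7%, beside 1.36%), all with FEAT higher. With 3 clones against 3, an exact two-sided permutation test cannot give a p below 0.1, so none was run for single genes.

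Of 102 other matrix genes in a separate list 96 had a probe and 66 were tested. By limma 0 passed on the brightest probe, and an unadjusted p under 0.05 was reached by 1 higher and 4 lower genes of the 66, beside 5.20% and 4.94% of all genes. Their median log2 difference was 0.13. It was positive for 46 of the 66 and negative for 20, beside 51.6% of all genes positive, so the members' tilt is not particular to them. The higher gene was Ltbp3, a latent TGF-beta binding protein of microfibrils, at 1765 ± 284 (SD, n = 3) in controls and 3062 ± 778 (SD, n = 3) with FEAT. Its log2 difference was 0.74 (limma, adjusted p = 0.165), and a second, called probe gave 0.93 (adjusted p = 0.0481). The lower genes were Itga6, a laminin receptor subunit (-0.61), B4galt7, an enzyme that builds the linker of glycosaminoglycan chains (-0.55), Pcolce2 (not above background on any array, so no size is given) and the cell surface proteoglycan Gpc1 (-0.46).

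Among matrix receptors 14 of 16 tested genes were positive (beside 51.6% of all genes), with a median of 0.24 and 0 called. The largest difference in size was the negative one of Itga6. The positive differences ran up to 0.50, and 0 of the positive genes had an unadjusted p under 0.05 (limma). They included the fibronectin receptor chains Itga5 and Itgb1 at 0.40 and 0.27, which were picked after their values were seen. The vitronectin receptor chain Itgb5 stood at 0.35 and the hyaluronan receptor Cd44 at 0.38. The type IV collagen genes Col4a1 and Col4a2 stood at 0.33 and 0.38. Has2, a hyaluronan synthase, had a log2 difference of 0.81 with an SE of 0.38 (limma, adjusted p = 0.562). In the list of other glycoproteins no gene of 13 tested had an unadjusted p under 0.05, and the median was 0.04.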

How the data were processed

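Total RNA of 6 NIH3T3 clones was extracted with RNeasy Mini, amplified and labelled with the Illumina TotalPrep kit and Cy3, per the labels' protocols. The submitters' processing notes name BeadStudio without a version. The deposited values are linear probe intensity values with the background still in them. The deposited value table holds the same intensity values times 1 factor per array and served as an alternative.

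Intensities were background corrected with normexp (offset 16), quantile normalized and put on a log2 scale with limma 3.58.1 in R 4.3.3. The 60% of probes with the highest mean were tested with lmFit and eBayes (two-sided, Benjamini-Hochberg over 27169 probes). The filter uses the mean of all 6 arrays. The brightest tested probe stood for a gene. Dim genes depend most on normexp. The fit alone was run on simulated log2 values with known changes, and its outcome is not given here. That run did not test the background correction, the normalization or the filter. The background limit of an array lies 3 SDs above the mode of its log2 intensities, with the SD taken around the mode from lower values only. It was set after the data were seen.

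Of 45281 probes 34885 had 1 gene symbol, 18 several and 10378 none here. Samples were grouped by their titles. The members, lists and rules were chosen with earlier results of these data known. Full values went to members with an adjusted or unadjusted p under 0.05, or with a log2 difference of at least 0.5 and no overlap, and to the brightest 3 members of each role; in each list of other genes, those that pass and up to 4 with the smallest p could be named. Itga5, Itgb1 and the members Tgfbi, Thbs2, Tnc, Ogn, Mfap2 and Nid2 are outside this rule, and their full values were chosen after their values were seen. Slide, scan date and detection p were not used here. Alternatives were other background, scaling, filter, variance and probe settings and the omission of each clone.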

Additional observations from a re-analysis of the deposited data

How the results depend on the processing

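With no normexp, and with an offset of 50 in it, 0 members were called in place of 1 (limma; 10 members had an unadjusted p under 0.05 in each), and with the top 40% of probes the members' median log2 difference was 0.31 over the 27 still tested. The remaining settings kept Thbs1 as the 1 member called, and all 9 settings kept 9 to 11 members without overlap. The 8 that test single probes gave 38 to 64 called probes. Leaving out 1 clone gave 0 to 158 called probes, 0 to 2 called members, a median of 0.13 to 0.31 and 10 to 16 members without overlap. The groups then separate more easily, so these last counts cannot be set against 11. Of 34 tested members 1 changed sign under a setting: Nid1, at 0.013 with the mean of its probes. Over the omissions 10 members changed sign, none of them with an unadjusted p under 0.05 over all clones: Tnc (-0.54 to 0.22), Thbs2 (-0.22 to 0.25), Tgfbi (-1.01 to 0.39), Dcn (-0.29 to 0.53), Fmod (-0.038 to 0.14), Ogn (-0.49 to 0.30), Prelp (-0.88 to 0.046), Vcan (-0.048 to 0.32), Lamb1 (-0.27 to 0.14) and Pcolce (-0.048 to 0.24). The cause was not tested. No paired analysis was possible because the groups share 1 clone number, which only names a clone. Where all 3 clones of a group are below background, no fold was measured.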
